A study of Danio rerio with 6 samples.

Results

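Glutamate tRNAs carry glutamate to the ribosome and occur in the cytoplasm with either of a pair of anticodons, TTC and CTC. Glu-TTC pairs with the glutamate codon that ends in A and, by wobble, with the one that ends in G, while Glu-CTC pairs with the latter. A tRNA folds into an acceptor stem, a D arm, an anticodon arm and a T arm, and its 3′ tail CCA, which receives the amino acid, is added after transcription. Cells keep several genes for the same anticodon whose bodies differ in a few bases, and the resulting tRNAs are called isodecoders. Cuts in the anticodon loop of glutamate tRNAs are a well known source of fragments from the 5′ side. The study's title concerns such fragments of tRNAs, but they are shorter than the RNA sequenced here. All rows of the cytoplasmic table with the amino acid Glu were taken, which gave 299 of 3021 distinct read sequences, 287 of them labelled Glu-TTC and 12 labelled Glu-CTC.

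The 6 libraries came from wild-type TU zebrafish, 1 from mature eggs and 1 from whole embryos of each of the stages 1cell, 256cell, sphere and shield and of the age of 24 hours (24hpf). Eggs or embryos were pooled, about 50 to 100 for a library. Their RNA was cut from a gel between 60 and 120 nt, deacylated, end-repaired and treated with ALKB enzymes that remove some base modifications. Broad transcription from the embryonic genome starts between 256cell and sphere. With 1 library per stage there is no replicate error, so every interval below is a 95% exact binomial interval that covers counting error only, and reads made by PCR with no identifier for each molecule may repeat a molecule. Fewer cells and less tRNA per cell cannot be told apart in whole embryos. The libraries held 3324546 to 7096801 reads, and 40818 to 131821 of them were listed as Glu. The histidine tRNAs His-GTG and His-ATG together held 81.7% to 89.1% of the listed cytoplasmic reads, least at 1cell, so shares of the other tRNAs move with them.

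The longest Glu-TTC read that contains the most abundant one has 75 nt and ends in CCA. Positions of Glu-CTC reads are counted on a separate Glu-CTC sequence of the same length, which is not shown. The Glu-TTC read is shown because positions of Glu-TTC reads are counted on it, from 1 at its 5′ end. Its anticodon (positions 34 to 36) is in capitals.
Glu-TTC: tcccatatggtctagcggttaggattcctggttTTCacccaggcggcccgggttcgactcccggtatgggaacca
None of the 2722 cytoplasmic sequences under other labels could be placed on either glutamate tRNA with up to 5 substitutions. The genome positions of these tRNAs were not used here. RefSeq's gene list for the zebrafish assembly GRCz12tu, which is not the build of the deposited tables, names 170 genes trnae-uuc and 196 genes trnae-cuc.

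Glu-TTC made up nearly all glutamate reads, and its share was lowest in egg and highest at 1cell. Its summed level was 10899 RPM (reads normalised to library depth) in egg, 13009 RPM at 1cell and 12030 RPM at 256cell, then 13375 RPM at sphere and 19318 RPM at shield, with 20597 RPM at 24hpf. As a share of the listed cytoplasmic reads it was 1.64% in egg (interval 1.63 to 1.65), 3.07% at 1cell (3.05 to 3.10) and 2.13% at 256cell, then 2.51% at sphere and 2.64% at shield, with 2.65% at 24hpf (2.64 to 2.67). In RPM every later stage lay above every earlier one, whereas by share 1cell lay above all 3 later stages. The intervals of shield and 24hpf overlap, and those of the other neighbours in this order do not. On the log2 scale, taken from the RPM plus 1 over the cytoplasmic total, 24hpf was 0.69 above egg (0.68 to 0.71), but 1cell was already 0.91 above egg and the difference of 24hpf from 1cell was -0.21. The step from egg to 1cell was upward for 82.9% of the 35 anticodons that averaged at least 10 RPM. From 1cell to 256cell Glu-TTC was 0.53 lower, and 17.1% of the anticodons were higher. The step to sphere (0.24) was upward for 74.3% of the anticodons, the step to shield (0.07) for 14.3% and the step to 24hpf (0.01) for 22.9%. Up to sphere Glu-TTC thus moved the way most anticodons did, and after sphere it held its share while most were lower. Among the reads left when the histidine tRNAs are set aside, both glutamate tRNAs together made up 15.5% in egg, 16.9% at 1cell and 16.9% at 256cell. Sphere had 16.5%, shield 17.8% and 24hpf 25.1%, so on that base 24hpf and not 1cell was the highest.

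Glu-CTC was rare in all libraries and stood higher at shield and 24hpf than before. It had 282 RPM in egg, 137 RPM at 1cell and 248 RPM at 256cell, then 286 RPM at sphere and 662 RPM at shield, with 845 RPM at 24hpf, from 825 to 5193 reads. Its share of the cytoplasmic reads was 0.0425% in egg (0.0406 to 0.0444), 0.0323% at 1cell (0.0302 to 0.0346) and 0.0439% at 256cell (0.0410 to 0.0470), then 0.0537% at sphere (0.0512 to 0.0563) and 0.0905% at shield (0.0871 to 0.0939), with 0.109% at 24hpf (0.106 to 0.112). Egg and 256cell did not differ beyond their intervals, while sphere, shield and 24hpf each lay above the stage before. At 24hpf Glu-CTC was 1.35 above egg on the log2 scale (1.28 to 1.43) and so more than 2-fold higher. That size was reached by 7 of the 35 anticodons, or 20%, and 42.9% were at least 2-fold lower. Of the anticodons at least 2-fold different 31.8% were thus higher, against 55.6% when the libraries were scaled by the median ratio of all anticodons. Of the 12 Glu-CTC sequences all were higher at 24hpf than in egg, by 0.69 to 2.43 on the log2 scale, and 7 were at least 2-fold higher. Among all 1913 cytoplasmic sequences that averaged at least 10 RPM, 12.5% were at least 2-fold higher and 42.3% at least 2-fold lower.

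**Figure D1:**
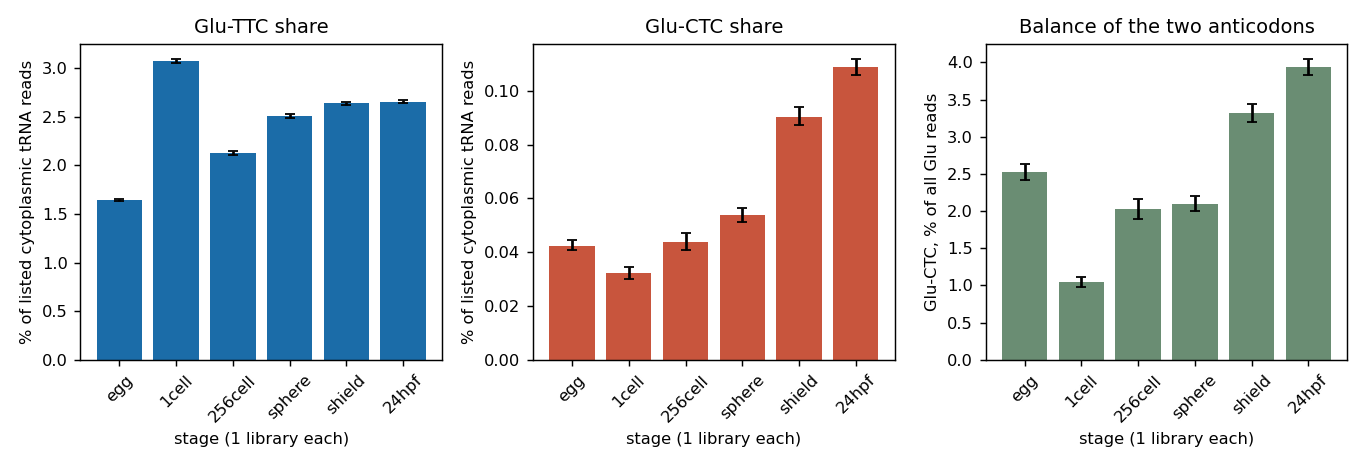
Share of Glu-TTC and of Glu-CTC among the listed cytoplasmic reads (left and middle, in percent) and Glu-CTC as a percentage of all glutamate reads (right), by stage with 1 library each. Bars are the library values and error bars the 95% exact binomial intervals, and Glu-CTC goes from 0.0425% in egg to 0.109% at 24hpf while Glu-TTC is highest at 1cell with 3.07%.

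The balance of the anticodons needs no scaling between libraries. Glu-CTC was 2.52% of the glutamate reads in egg (2.41 to 2.63), 1.04% at 1cell (0.972 to 1.11) and 2.02% at 256cell (1.89 to 2.16), then 2.10% at sphere (2.00 to 2.20) and 3.31% at shield (3.19 to 3.44), with 3.94% at 24hpf (3.84 to 4.05). There were thus 95.1 Glu-TTC reads per Glu-CTC read at 1cell, 38.7 in egg and 24.4 at 24hpf. Only 256cell and sphere did not differ beyond their intervals. The egg value lay above sphere, so the later and earlier stages overlapped.

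The 3 later libraries (sphere, shield and 24hpf) were set against the 3 earlier ones (egg, 1cell and 256cell), which lie on either side of the onset of broad transcription, as if different stages were replicates. Glu-TTC was 0.24 higher in the later stages on the log2 scale (two-sided exact permutation p = 0.4) and Glu-CTC was 1.04 higher (p = 0.1, exact), which is the smallest p that 3 libraries against 3 allow. Glu-CTC was 1 of 2 anticodons of 35 with each later library above every earlier one, or 5.71%, though not when His-GTG was left out of the total or with median-ratio scaling. In RPM the Glu-TTC difference was 0.55 (exact permutation p = 0.1), and with median-ratio scaling it was 0.78 (exact permutation p = 0.1). For Glu-CTC the same scalings gave 1.35 (exact permutation p = 0.1) and 1.58 (exact permutation p = 0.2). At least 2-fold higher were 8.57% of the anticodons and at least 2-fold lower 25.7%, a split of 25% higher calls that became 37.5% in RPM and 100% with median-ratio scaling. The Glu-CTC difference was 0.90 without 1cell, 0.96 without shield and 0.83 without 24hpf. The Glu-CTC percentage of glutamate reads was 1.86 before and 3.12 after, a difference of 1.26 percentage points (exact permutation p = 0.2), which was 0.84 without 1cell and 0.84 without 24hpf. The Glu-TTC difference was 0.02 without egg and 0.48 without 1cell, so that it rests on the egg library and is lowered by 1cell. edgeR's quasi-likelihood test on the recovered reads gave log2 fold changes of 1.17 for Glu-TTC (adjusted p = 0.254) and 2.10 for Glu-CTC (adjusted p = 0.204) on its own trimmed-mean scale, and it called 1 of 35 anticodons at an adjusted p of 0.05, which was Lys-TTT.

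The anticodons with the most similar course over the 6 libraries were Arg-ACG (Pearson r of 0.92 for log2 shares), Arg-CCT (0.91) and Lys-CTT (0.87) for Glu-TTC, and Val-TAC (0.88), Trp-CCA (0.41) and His-GTG (0.39) for Glu-CTC. Without the 2 libraries farthest from the median these were 0.72, 0.70 and 0.44, and 0.67, -0.67 and 0.43. Between Glu-TTC and Glu-CTC r was 0.21, which became -0.64 without the 2 libraries farthest from the Glu-TTC median and -0.37 without those farthest from the Glu-CTC median. These values describe 6 libraries that share depth and the total they are divided by. Asp-GTC, the tRNA of the other acidic amino acid, was 1.97% of the cytoplasmic reads in egg, 5.48% at shield and 2.75% at 24hpf. Its peak at shield had no counterpart in Glu-TTC. Gln-CTG and Gln-TTG, which carry the amide of glutamate, were lower at 24hpf (0.731% and 0.0580%) than in egg (1.66% and 0.275%). The mitochondrial glutamate tRNA trnE had 416 RPM in egg, 904 RPM at 1cell and 1331 RPM at 256cell, then 1090 RPM at sphere and 564 RPM at shield, with 195 RPM at 24hpf. There were 26.9 cytoplasmic glutamate reads per trnE read in egg, 9.23 at 256cell and 110 at 24hpf. Of the listed mitochondrial tRNA reads, trnE made up 0.309% in egg, 0.385% at 1cell and 0.551% at 256cell. Sphere had 0.543%, shield 0.563% and 24hpf 0.497%. By that share trnE was thus higher at 24hpf than in egg, while its RPM was lower.

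Glu-TTC was a mixture of sequence forms whose proportions differed between stages. Over all placed reads 1 form held the majority in every library, from 52.0% at 1cell to 83.3% at 24hpf. From reads ending in CCA it held 45.4% in egg, 40.8% at 1cell, 49.4% at 256cell and 47.8% at sphere, so no majority there. At shield that value was 55.1% and at 24hpf 76.6%. When placed on the 75-nt read it held 48.6% at 1cell. Each sequence was placed without gaps on the most abundant read, which covers positions 12 to 75, and 285 of 287 sequences could be placed with up to 5 substitutions. They fell into 49 forms, the leading form with no substitution and 48 others. A substitution is written as the base of the leading read, its position and the base of the form. The forms that held most of the remaining reads carried T20C in the D loop, C28T in the anticodon stem, or one of these with a further substitution. The most abundant read of each is shown, all starting at position 12, with the substituted bases and the anticodon (positions 34 to 36) in capitals.
Leading form: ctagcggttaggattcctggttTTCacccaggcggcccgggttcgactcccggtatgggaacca
T20C: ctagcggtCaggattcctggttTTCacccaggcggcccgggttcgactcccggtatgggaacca
C28T: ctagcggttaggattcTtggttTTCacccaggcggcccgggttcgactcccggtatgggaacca
T20C+A66T: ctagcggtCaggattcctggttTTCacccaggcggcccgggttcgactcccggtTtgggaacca
C28T+C39T: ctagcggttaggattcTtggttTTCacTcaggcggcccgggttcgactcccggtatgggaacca
Position 28 faces G42 in the anticodon stem, position 39 faces G31 in the same stem, and position 66 faces T6 in the acceptor stem. C28T and C39T thus each turn a pair of the anticodon stem into a wobble pair. A66T would leave a mismatch in the acceptor stem if position 6 stays T. That position lies ahead of the most abundant read, on which the forms were defined, so a changed base there would not show in the form. Of the T20C+A66T reads over all libraries, 8.14% start at position 1 and so cover position 6. Whether their base there is changed was not tested. In the anticodon itself only 1 sequence had another base, with at most 0.0745% of the reads of a library. The origin of the forms was not tested.

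The leading form held 54.5% of the placed Glu-TTC reads in egg (54.1 to 54.8), 52.0% at 1cell (51.6 to 52.3) and 57.9% at 256cell (57.4 to 58.4), then 58.0% at sphere (57.7 to 58.4) and 63.5% at shield (63.2 to 63.8), with 83.3% at 24hpf (83.1 to 83.5). Only 256cell and sphere did not differ beyond their intervals, and the widest step was from shield to 24hpf. In RPM the leading form went from 5930 in egg to 6749 at 1cell and 6962 at 256cell, then 7752 at sphere and 12256 at shield, with 17135 at 24hpf. All other forms together had 4955 RPM in egg, 6243 RPM at 1cell and 5055 RPM at 256cell, then 5603 RPM at sphere and 7042 RPM at shield, with 3441 RPM at 24hpf. Between egg and 24hpf the leading form was thus 1.31 higher as a share of the cytoplasmic reads on the log2 scale (1.29 to 1.32), and the other forms together were 0.75 lower (-0.78 to -0.73). From shield to 24hpf the same differences were 0.40 and -1.12, with the Glu-TTC total at 0.01. Under the nearly equal Glu-TTC totals of shield and 24hpf the leading form was thus higher and the sum of the others lower. In the 3 later stages the leading form averaged 68.3% against 54.8% in the 3 earlier ones (exact permutation p = 0.1, the smallest possible). That difference of 13.5 percentage points was 5.99 without 24hpf. It was 14.6 from reads ending in CCA (exact permutation p = 0.2) and 14.1 when placed on the 75-nt read (exact permutation p = 0.2). From sequences averaging at least 10 RPM it was 12.2 (exact permutation p = 0.2).

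**Figure D2:**
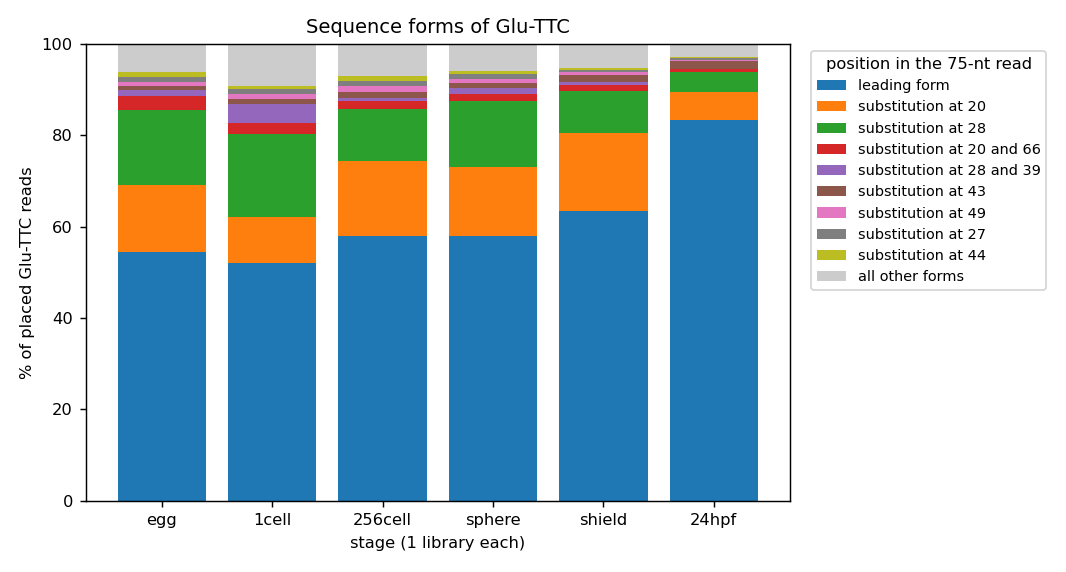
Share of each sequence form among the placed Glu-TTC reads (percent, stacked bars) by stage, 1 library each. Forms are named by the positions of their substitutions, grey is the sum of forms below 1% in all libraries, and the leading form goes from 54.5% in egg to 83.3% at 24hpf.

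The single forms did not follow a common course. T20C (38 sequences) held 14.7% of the Glu-TTC reads in egg, 10.2% at 1cell and 16.4% at 256cell, then 15.0% at sphere and 16.9% at shield, with 6.21% at 24hpf. Its level was highest at shield, with 3266 RPM against 1278 RPM at 24hpf and 1324 to 1998 RPM in the other libraries. C28T (21 sequences) held 16.4% in egg, 18.1% at 1cell and 11.3% at 256cell, then 14.6% at sphere and 9.17% at shield, with 4.45% at 24hpf. C28T was above T20C in egg and at 1cell and below it at 256cell, shield and 24hpf, and at sphere their intervals overlapped. This order is for reads with any listed 3′ end. Reads ending in CCA made up 98.5% to 99.5% of C28T and 44.2% to 50.2% of T20C. The order thus depends on the 3′ ends that are counted, and it was not computed for CCA reads alone. By share of the cytoplasmic reads, T20C was 0.54 lower at 24hpf than in egg on the log2 scale (-0.59 to -0.50) and C28T 1.19 lower (-1.23 to -1.14).

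The 2 most abundant forms with a pair of substitutions were lower still at 24hpf, whereas the rare T20C+G43T was 0.38 higher than in egg by share on the log2 scale (8.88 and 14.0 RPM). T20C+A66T (18 sequences) went from 325 RPM in egg and 307 RPM at 1cell to 215 RPM at 256cell, then 199 RPM at sphere and 261 RPM at shield, with 104 RPM at 24hpf, or 2.99% of the Glu-TTC reads in egg and 0.505% at 24hpf. C28T+C39T (9 sequences) stood out at 1cell with 560 RPM, or 4.31% of the Glu-TTC reads (4.17 to 4.45), against 143 RPM in egg and 84.5 RPM at 256cell, then 187 RPM at sphere and 141 RPM at shield, with 36.9 RPM at 24hpf. On the log2 scale these forms were 1.86 and 2.15 lower at 24hpf than in egg by share.

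G43T, a substitution of the anticodon stem base that faces C27, went the other way, with 110 RPM in egg, 140 RPM at 1cell and 160 RPM at 256cell, then 136 RPM at sphere and 299 RPM at shield, with 322 RPM at 24hpf. That was 1.32 higher at 24hpf by share, like the leading form at 1.31, and its part of the Glu-TTC reads stayed between 1.01% and 1.57%. C49T, C27T and C44T each held 0.228% to 1.29% of the reads and were 0.72 to 1.48 lower at 24hpf than in egg on the log2 scale.

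**Figure D3:**
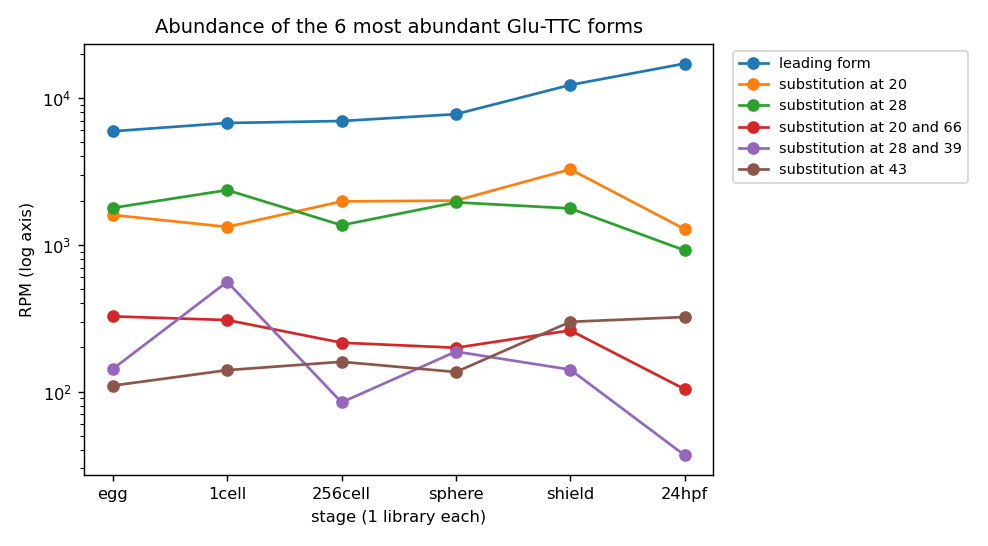
Level of the 6 most abundant Glu-TTC forms in RPM (log axis) by stage, 1 library each. The leading form is higher in each library than in the stage before and reaches 17135 RPM at 24hpf, the forms with a substitution at 20 or at 28 end at 1278 and 916 RPM, and the form with substitutions at 28 and 39 peaks at 1cell with 560 RPM.

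Of the 34 minor forms that averaged at least 10 RPM, 24 were lower and 10 higher at 24hpf than in egg by share, with a median of -0.73 on the log2 scale. At least 2-fold lower were 16, and 8 were at least 2-fold higher. Over the 400 minor forms of all anticodons at that level, built in the same way, 54.8% were at least 2-fold lower and 8% at least 2-fold higher, with a median of -1.26. That background includes the Glu-TTC forms, and 16 of 34 lies near its share of 2-fold lower forms, so nothing is read from that count. Among single sequences, 161 of the 287 Glu-TTC sequences averaged at least 10 RPM, and 47 of them were at least 2-fold higher and 51 at least 2-fold lower at 24hpf than in egg, where 12.5% and 42.3% of all 1913 sequences at that level were. The leading read of 64 nt had 771 RPM in egg, 839 RPM at 1cell and 921 RPM at 256cell, before 993 RPM at sphere and 1762 RPM at shield, with 2884 RPM at 24hpf. The same read without the last 2 bases of the CCA tail went from 262 RPM in egg to 1263 RPM at 24hpf. That was 2.04 higher by share on the log2 scale (1.97 to 2.12). The read from position 13 to 75 went from 763 to 1661 RPM, 0.90 higher (0.85 to 0.95). The C28T read of 64 nt had 615 RPM in egg, 858 RPM at 1cell and 396 RPM at 24hpf. The sequences with the largest gain were a read of 68 nt with G23T, from 7.05 RPM in egg to 67.8 RPM at 24hpf, and a read of 64 nt with G42T, at 7.89 and 45.1 RPM. Those with the largest loss were complete reads of 75 nt, 1 with C28T that went from 64.7 to 9.11 RPM and 1 with C62T that went from 17.6 to 1.46 RPM.

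Other anticodons also exchanged their forms. Among the 32 anticodons past the filter with at least 2 sequences, the percentage held by the leading form was at least 10 points higher at 24hpf than in egg in 10, or 31.2%. Glu-TTC, at 28.8 points, came in the fifth place. Gln-CTG led with 41.6 points, Asp-GTC was at 5.10 points and Gln-TTG was lowest at -62.1 points. No such exchange could be seen for Glu-CTC, since all 12 of its listed sequences matched its most abundant read without a substitution. The least abundant of them has 417 reads over the 6 libraries, against 71 for Glu-TTC, so rarer forms of Glu-CTC could be missing.

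The first bases of the reads tell how far they reached towards the 5′ end of the tRNA. No listed read is shorter than 60 nt, so a read with the CCA tail cannot start beyond position 16, and shorter products are not seen. Most Glu-TTC reads began at position 12 (30.3% to 35.7% of the placed reads) or 13 (17.7% to 23.7%), and fewer at position 8 (10.0% to 13.6%), 10 (6.54% to 8.84%) or 7. Reads from position 1 made up 4.63% in egg, 6.68% at 1cell (6.51 to 6.86) and 3.80% at 256cell, then 5.76% at sphere and 4.06% at shield, with 4.06% at 24hpf. Reads of 75 nt, the complete tRNA, made up 2.20% of Glu-TTC reads at 24hpf, 5.06% at 1cell and 2.50% to 4.03% in the other libraries. The mean length was 64.0 to 64.6 nt in all 6 libraries, and 83.0% to 87.9% of the reads had 60 to 67 nt.

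Reads from position 1 also cover the 5′ strand of the acceptor stem, which the most abundant read lacks. Placed on the 75-nt read, 32.2% of them had the leading sequence throughout in egg, 34.2% at 1cell and 42.4% at 256cell, then 46.3% at sphere and 53.2% at shield, with 67.9% at 24hpf, in 1519 to 5289 reads. C28T went from 12.8% of these reads in egg to 1.09% at 24hpf, and G9T from 9.94% to 1.25%. C4T, a substitution in the acceptor stem, was higher at 24hpf, with 14.1% against 5.77% in egg, so not every substitution was rarer there. From egg to 24hpf this percentage differed in the same direction as the leading form over all reads, which was counted on positions 12 to 75 only. From egg to 1cell it was slightly higher here and lower over all reads. No interval was computed for the step here, so no opposite direction is read from it.

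Glu-CTC reads began at some of the places of the Glu-TTC reads, with other weights, and none was listed from several others, among them positions 7 and 11. Only 12 Glu-CTC sequences are listed, the least abundant with 417 reads over all libraries, so rarer starts and longer reads could be missing. Position 12 held 44.6% in egg, 45.3% at 1cell and 45.5% at 256cell, then 45.3% at sphere and 39.4% at shield, with 35.0% at 24hpf. Position 14 held 13.9% in egg (12.4 to 15.5), 15.5% at 1cell and 15.8% at 256cell, then 17.8% at sphere and 18.4% at shield (16.9 to 19.9), with 30.3% at 24hpf (29.1 to 31.6). The 24hpf library lay above the other 5 beyond counting error. In Glu-TTC position 14 held 5.21% to 7.17%. The most abundant Glu-CTC read, from position 12 to 73, had 48.9 RPM in egg and 137 RPM at 24hpf. The read from position 14 to 75 went from 25.5 RPM in egg to 87.1 RPM at shield and 166 RPM at 24hpf and was 2.43 higher by share on the log2 scale (2.25 to 2.71), the highest of the 12 sequences, while the read from 12 to 75 was 0.86 higher (0.69 to 1.06). No Glu-CTC sequence of 70 nt or more is listed, and the reads from position 1 all end at position 69.

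**Figure D4:**
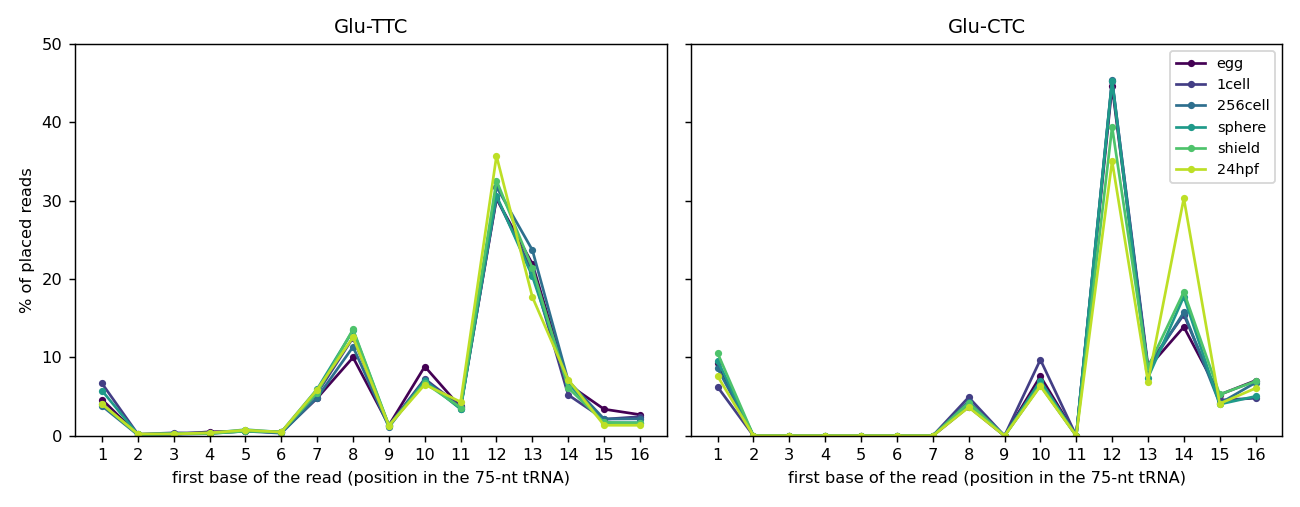
Percentage of placed Glu-TTC (left) and Glu-CTC (right) reads that start at each position of the tRNA, counted from its 5′ end, with 1 line per stage and 1 library each, and positions with no listed sequence at 0. Position 12 leads in both, and at position 14 the Glu-CTC line of 24hpf stands at 30.3% against 13.9% to 18.4% in the other libraries.

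The 3′ end of the reads differed between the anticodons and between the forms. Reads ending in CCA made up 63.4% of Glu-TTC in egg (63.0 to 63.7), 66.9% at 1cell and 60.1% at 256cell, then 60.6% at sphere and 57.8% at shield, with 52.6% at 24hpf (52.3 to 52.9). Reads that stop 2 bases earlier, at position 73, made up 14.9% in egg, 12.9% at 1cell and 21.5% at 24hpf. Reads from position 15 or 16 that stop at 73 would be shorter than 60 nt and could not be listed. Starts at 15 and 16 held 3.39% and 2.70% of placed Glu-TTC reads in egg, and 1.34% each at 24hpf. How far this moved the CCA percentages was not tested. Glu-CTC had 52.5% to 57.9% of its reads ending in CCA, with 56.2% in egg (54.0 to 58.4) and 56.4% at 24hpf (55.0 to 57.7), which did not differ beyond counting error. A CCA percentage at least 10 points lower at 24hpf was found in 6 of the 32 anticodons, or 18.8%, and Glu-TTC at -10.8 points was the fourth lowest after Asp-GTC, Asn-GTT and Gln-CTG.

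Reads with C28T ended in CCA almost without exception, with 99.5% in egg (99.3 to 99.6) and 98.5% at 24hpf (98.2 to 98.8), while reads without it did so in 55.5% and 50.3%. Of 33 sequences with C28T 32 ended in CCA, against 145 of 252 without it and 29 of 77 of the leading form. T20C reads ended in CCA in 47.4% over all libraries, close to 50.3% in the leading form, and C28T+C39T reads in 100%. High CCA percentages were not particular to C28T, since G43T reads, which lack it, ended in CCA in 93.8% over all libraries. C44T reads did so in 70.3%, C49T in 64.9%, T20C+A66T in 61.1% and C27T in 50.9%. The part of C28T in the placed reads, alone or with other substitutions, went from 17.9% in egg to 4.67% at 24hpf. Without C28T the difference of the Glu-TTC CCA percentage between 24hpf and egg was -5.20 points in place of -10.8, and within the leading form it went from 52.8% to 48.3%. Why reads with C28T and a shortened tail are nearly missing from the table was not tested. No source used here gives the rule by which a read entered the table.

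**Figure D5:**
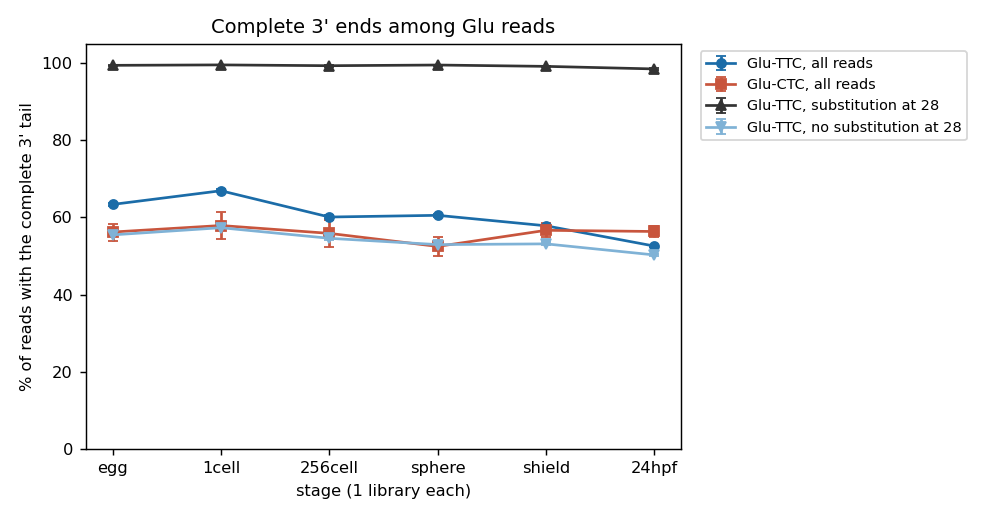
Percentage of reads that end in the complete tail CCA by stage, for all Glu-TTC and Glu-CTC reads and for Glu-TTC reads with and without the substitution at position 28, 1 library each. Error bars are 95% exact binomial intervals, and reads with the substitution lie at 98.5% to 99.6% while the others lie at 50.3% to 57.3%.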

How the data were processed

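Both tables are in RPM as the authors deposited them, per the labels and the tables' own names: 1 row per distinct read sequence for cytoplasmic tRNAs and 1 row per tRNA for mitochondria. The submitters' processing notes name cutadapt 3.4, Bowtie2 2.4.2 and GRCz11. No source used here gives their settings, the listing rule or the handling of shared reads. All values were whole multiples (100% within 0.01 reads) of 1 step per library, which gave the reads and library totals. For 1cell few low values carry this step. The least abundant Glu sequence has 71 reads over the 6 libraries, so rarer ones are not seen, and 3 reads correspond to 0.423 to 0.902 RPM.

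For each anticodon the summed RPM plus 1 RPM was taken over the cytoplasmic total. Folds are therefore on the log2(value + pseudocount) scale. Anticodons averaging at least 10 RPM were compared, with 2-fold as the size that counts. Interval bounds of ratios come from the reads of 2 libraries without the pseudocount. Sequences were placed without gaps (overlap of at least 50 nt, up to 5 substitutions), so a missing base shows as substitutions. Named items were the 4 most abundant sequences of an anticodon, the 2 highest and 2 lowest, forms of at least 1% in a library and the 3 most similar anticodons. G9T, C4T, position 14 and the contrast of C28T with other reads were chosen after their values were seen. The members and lists were chosen with earlier results of these data known. Python 3.11.15, scipy 1.17.1 and edgeR 4.0.16 were used, and placement and edgeR were tested on simulated data. The edgeR simulation used single sequences with simulated replicates. It did not use anticodon sums with different stages as replicates, so it cannot show how edgeR performs in that setting. The Glu-CTC sequence is not reported here.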

Additional observations from a re-analysis of the deposited data

How the results depend on the processing

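With 1 library per stage no replicate error can be given, and at these depths differences below the counting intervals cannot be seen. The 24hpf minus egg difference of Glu-TTC (0.69) was 0.92 in RPM, 0.68 without His-GTG in the total, 1.49 with median-ratio scaling, 0.45 from reads ending in CCA and 0.76 from sequences averaging at least 10 RPM. It was 0.32 with 256cell in the place of egg and -0.21 with 1cell. That of Glu-CTC (1.35) was 1.58 in RPM, 2.15 with median-ratio scaling and 1.74 against 1cell. The change of scale from shares raised the median 24hpf minus egg difference of all anticodons by 0.22 in RPM and 0.79 with median-ratio scaling. The differences of both tRNAs were raised along with it. That median was -0.66 by share, -0.44 in RPM and 0.13 with median-ratio scaling. Both tRNAs lay above it by share. A scaling moves all anticodons of a library alike, so the other scalings cannot change that and add no support. The Glu-CTC percentage (difference 1.42 points) gave 1.97 from CCA reads, 1.31 from sequences averaging at least 10 RPM, 1.92 against 256cell and 2.90 against 1cell. The leading form (28.8 points) gave 31.2 from CCA reads, 27.1 from sequences averaging at least 10 RPM, 30.0 on the 75-nt read, 31.3 against 1cell, 25.3 against 256cell and 19.8 against shield. The CCA difference of Glu-TTC gave -10.5 from sequences averaging at least 10 RPM and -5.20 without C28T.

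Of the anticodons, 15 were at least 2-fold lower at 24hpf than in egg, but 8 with median-ratio scaling and 9 with a filter of 100 RPM, which also left 4 of 7 higher because fewer were compared. In the later stages 9 were lower, but 5 in RPM, 5 with a pseudocount of 10 RPM, 4 with the 100 RPM filter, 0 with median-ratio scaling and 0 with edgeR, which gave 10 higher in place of 3. Of edgeR's 35 p-values 7 were under 0.05 before adjustment. A change of scale moves all anticodons alike. From shares to RPM it raised each later minus earlier difference by 0.31, and to median-ratio scaling by 0.54. Apart from such shifts and fewer anticodons under the stricter filter, the cause was not tested. With each library left out in turn, the later minus earlier difference was 0.02 to 0.48 for Glu-TTC, 0.83 to 1.33 for Glu-CTC, 0.84 to 1.76 points for the Glu-CTC percentage and 5.99 to 18.6 points for the leading form. Alternatives with another stage in the place of egg, those of the leading form and the removal of C28T were added after the data were seen. No paired analysis was possible because each stage has 1 library and all carry the same replicate number.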
